A study of Arabidopsis thaliana with 8 samples.

Results

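Transcript levels in rosettes of pgm (Col-0), a starchless mutant of *Arabidopsis thaliana*, were compared between the hours 16h and 12h of a day course, with 1 array at 16h and 2 arrays, A and B, at 12h. A probe set was taken as a member when its 16h value lay at least 1 log2 unit above the higher or below the lower of the 2 values at 12h, on the scale log2(intensity + 16). Of 22746 probe sets 1277 met this, 831 above (3.65%) and 446 below (1.96%). They name 629 of the 13334 genes with a named probe set, 418 above and 211 below. The mutant lacks plastidial phosphoglucomutase, and every plant of the series carries this defect, so no group has normal starch. A wild type is not analysed here. Plants were 5 to 6 weeks old, and a sample was ground from 15 whole rosettes, pooled from 5 harvests of 3. Hours 20h, 08h and 04h (1 array each) and 00h (2 arrays) were used to follow the same probe sets in other arrays. When the lamps were on or off is not stated in the labels, and neither is the origin of A and B. If both arrays of an hour share plants, the p-values below reflect technical spread alone.

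Leaves store part of the day's photosynthate as starch in the chloroplast and break it down to sugars when light is absent. Plants that cannot make starch hold high sugar levels in the light and run short of sugar in the dark. The kinase SnRK1 is known to respond to low energy, to switch on genes for the breakdown of amino acids, lipids and cell constituents, and to switch off genes of growth and biosynthesis. These statements are background and were not measured here.

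The 16h array and both 12h arrays differed from each other far more than the arrays of an hour did. Among 13647 probe sets whose mean lay above the lowest 40%, 1842 (13.5%) differed by 1 log2 unit or more between 16h and 12h A and 1902 (13.9%) between 16h and 12h B. Between the 2 arrays at 12h this held for 227 (1.66%). Of the members, 766 of the 831 above (5.61% of the probe sets past this filter) and 434 of the 446 below (3.18%) passed the filter. With only 12h B as the comparison, 1209 probe sets lay above and 845 below by this distance. With only 12h A, the numbers were 1239 above and 771 below, so the rule of lying outside both arrays leaves a smaller set.

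A limma fit over all 8 arrays, with the hour as a factor, called 921 probe sets higher at 16h (6.75%) and 605 lower (4.43%) at an adjusted p under 0.05. The single 16h array has no spread of its own and was assumed to vary like the pairs at 00h and 12h, which give 2 residual degrees of freedom. The fit called 732 of the members above and 422 of those below. It uses the same 3 arrays that chose the members, so these counts add no separate evidence for them. When the dim probe sets were kept in the fit, it called only 272 higher and 86 lower, and 77 of 122 called genes that are named here or held in the gene lists lost their call. Genes are therefore described mainly by their value on each array.

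**Figure D1:**
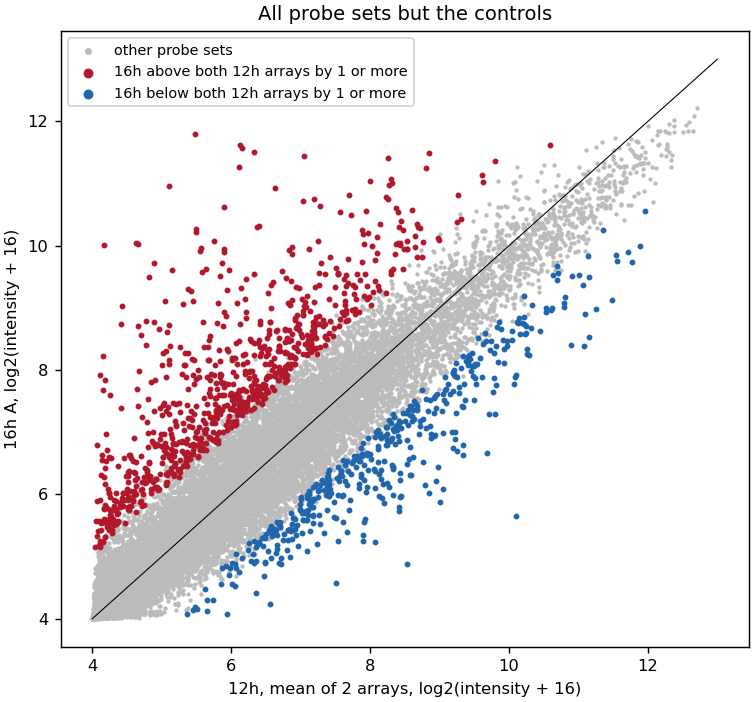
Each point is 1 of 22746 probe sets, with its 16h value on the vertical axis against the mean of both 12h arrays on the horizontal axis, both as log2(intensity + 16). The 831 probe sets above and the 446 below by at least 1 log2 unit are coloured, and the line marks equal values.

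Distances above 12h reached farther than distances below. The median distance from the nearer 12h array was 1.4 log2 units for the members above and 1.25 for those below. At least 2 units separated 187 probe sets above and 44 below, and at least 3 units separated 60 above and 2 below. The largest distance was 5.84 above and 4.31 below. A single gene was given for 421 of the probe sets above and 213 of those below. At the edge of the rule, AT4G03030, AT4G28290 and AT4G25030 lay just inside above (1.002, 1.004 and 1.006 log2 units), and AT2G34620, AT3G03150 and AT4G30390 just outside (0.996, 0.997 and 0.998). Below, AT4G35850, AT3G10530 and AT5G19300 lay just inside (1.002 each), and AT3G10610, AT4G34950 and AT2G39390 just outside (0.993, 0.994 and 0.996).

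Among the probe sets with a single named gene, several listed genes of sugar starvation and darkness lay at the far end of the set above. *AT2G20670* had an intensity of 1019.2 at 16h, against 2.1 and 2.0 at 12h. *AT1G25400* had 832.8 at 16h, against 15.2 and 11.9 at 12h. *AT3G15450* had 2895.4 at 16h, against 104.0 and 38.1 at 12h. In each the 16h value was far outside the gap between the 2 arrays at 12h, and the 12h signals of the first 2 lay near the bottom of the scale. *AT5G19120* had 1555.3 at 16h, against 34.6 and 54.1 at 12h. *AT3G15630* had 1922.9 at 16h, against 95.9 and 71.4 at 12h. *AT3G62950*, which is in none of the lists, had 411.7 at 16h, against 9.1 and 2.0 at 12h. Among named genes these 6 lay farthest above, from 4.09 to 5.84 log2 units beyond the nearer 12h array.

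Of 29 listed genes of sugar starvation and darkness 15 had a named probe set, and 14 of these lay above the 12h range, where 5.61% of all probe sets past the filter did. Their median log2 difference of 16h minus 12h was 4.01, against -0.01 over all tested probe sets. The list was written with earlier results of these arrays known and is no independent evidence of its direction. The member that stayed within 1 unit was *MCCB*, with 280.4 at 16h, against 172.1 and 184.0 at 12h. Among the other genes farthest above, listed or not, between 3.65 and 3.99 log2 units above the nearer 12h array lay *AT1G68440*, *AT2G05540*, *AT1G54740*, *AT5G61590* (also called *DEWAX*, a factor that lowers wax synthesis), *AT1G72060*, *AT1G30820* and *AT3G23550*, with 16h intensities from 360.8 to 1241.3.

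The gene of a regulatory beta subunit of SnRK1 was among them. *AKINBETA1* had 941.8 at 16h, against 54.6 and 34.4 at 12h, a log2 difference of 4.01 ± 0.297 (SE, limma adjusted p = 3.73e-05). The other 2 measured genes of the SnRK1 list stayed within 1 unit. *AT2G28060* had 149.0 at 16h, against 135.6 and 114.4 at 12h. *AT4G16360* had 122.4 at 16h, inside the 12h values of 112.5 and 128.7. So 1 of 3 measured genes of this list, which holds 7, lay above the 12h range, where 5.61% of all tested probe sets did. The other listed SnRK1 genes were not analysed here.

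**Figure D2:**
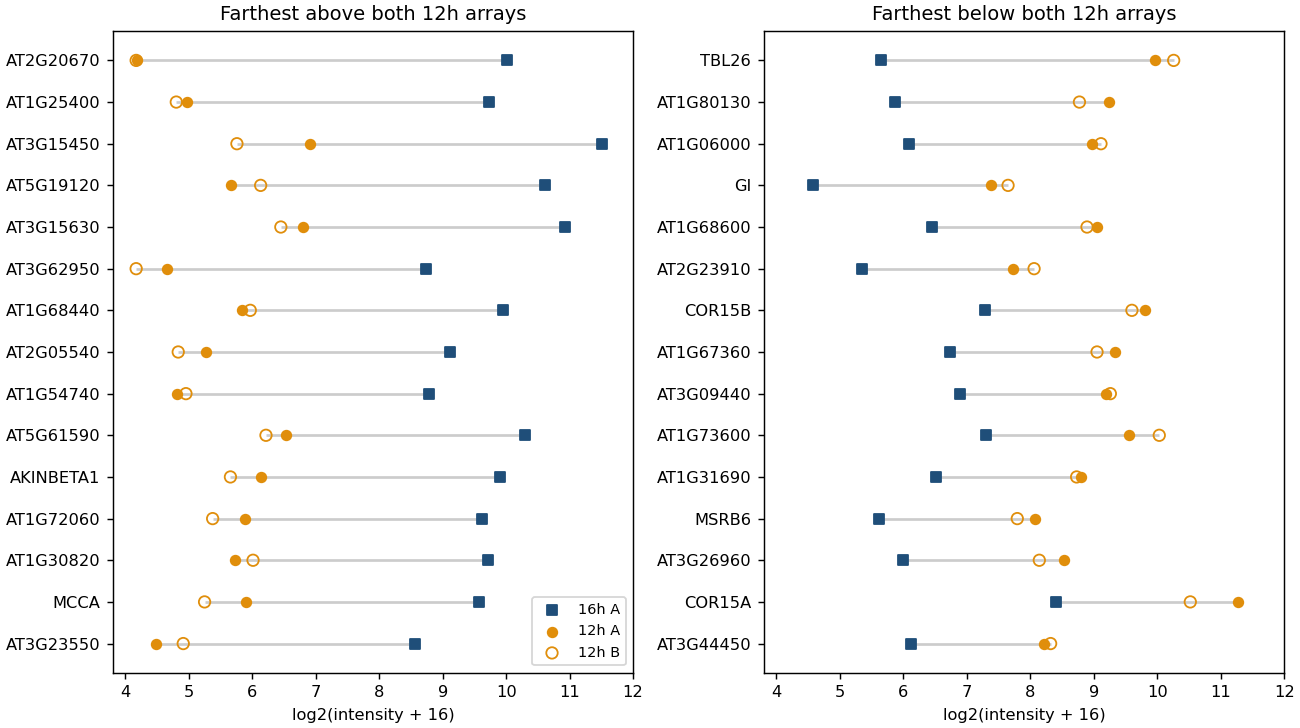
Values of the 15 named genes farthest above (left) and farthest below (right) both 12h arrays, as log2(intensity + 16). Squares are the 16h array and circles the arrays 12h A (filled) and 12h B (open); the grey line spans the 3 values, and in each row the 2 circles lie close together relative to the square.

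Transcripts of several enzymes that break down leucine and lysine lay higher at 16h, though not those of all steps or subunits. *MCCA*, the biotin-bearing subunit of mitochondrial methylcrotonyl-CoA carboxylase, had 744.8 at 16h, against 43.7 and 22.0 at 12h (log2 difference 4.00 ± 0.309, SE; limma adjusted p = 4.49e-05). *MCCB* of the same carboxylase, also in this list, stayed within 1 unit of the 12h range, with the values given above. *IVD*, isovaleryl-CoA dehydrogenase of the same path, had 203.8 at 16h, against 35.2 and 67.1 at 12h. *ETFQO*, which passes electrons from that dehydrogenase to ubiquinone, had 196.9 at 16h, against 47.1 and 40.5 at 12h. The genes of the electron carrier between both, *ETFALPHA* and *ETFBETA*, lay within 0.24 log2 units of the 12h mean. *AT4G33150*, annotated as lysine-ketoglutarate reductase and saccharopine dehydrogenase, had 109.6 at 16h, against 41.0 and 37.9 at 12h. Its call was narrow (limma adjusted p = 0.0395, and 0.055 with every array scaled to 1 median). In all, 4 of 8 tested genes of amino acid breakdown lay above the 12h range and 0 below, where 5.61% and 3.18% of all tested probe sets did, with a median difference of 0.9.

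Further genes of amino acid and pyruvate metabolism were found among the members, outside that list. *MGL*, the methionine gamma-lyase that cleaves methionine, had 411.3 at 16h, against 52.8 and 54.8 at 12h. *GAT1_2.1*, a glutamine amidotransferase, had 212.7 at 16h, against 2.3 and 2.1 at 12h. *ALDH6B2*, the methylmalonate semialdehyde dehydrogenase of valine breakdown, had 1055.2 at 16h, against 469.7 and 371.1 at 12h. Among 8 tested aldehyde dehydrogenase genes it was the only one above the 12h range, where 5.61% of all tested probe sets were. *ALDH3F1* was the only one below, where 3.18% were, with 117.0 at 16h, against 288.3 and 323.0 at 12h. *PPDK*, which turns pyruvate into phosphoenolpyruvate, had 1031.4 at 16h, against 219.7 and 229.9 at 12h.

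Autophagy wraps cytoplasm into membranes that carry ATG8 proteins. *ATG8E* had 766.8 at 16h, against 50.1 and 43.9 at 12h (log2 difference 3.64 ± 0.253, SE; limma adjusted p = 2.74e-05). *ATG8H* had 100.6 at 16h, against 21.2 and 24.9 at 12h. They were 2 of 11 tested autophagy genes above the range, where 5.61% of all tested probe sets were, with 0 below, and 2 of 9 in the ATG8 family, whose median difference was 0.76. *ATG8F* had 1238.8 at 16h, against 704.0 and 488.5 at 12h, and did not pass (limma adjusted p = 0.0742). *ATG8C* had 291.0 at 16h, against 156.6 and 144.8 at 12h, and did not pass (limma adjusted p = 0.0523). *ATG3*, which loads ATG8 onto lipid, differed by 0.37 log2 units and *ATG8D* by -0.18.

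Lipid and sugar transport genes were split by gene. *SDP1*, the lipase that opens stored triacylglycerol, had 220.6 at 16h, against 25.1 and 36.2 at 12h. *AIM1* of peroxisomal beta-oxidation had 343.6 at 16h, against 335.8 and 427.0 at 12h. *TMT1*, which loads hexoses into the vacuole, had 630.8 at 16h, against 160.8 and 107.1 at 12h. *SWEET2*, a sugar carrier of the vacuole membrane, had 271.3 at 16h, against 36.8 and 33.5 at 12h. *SWEET13*, a sucrose exporter of the cell membrane, lay on the other side with 15.6 at 16h, against 89.4 and 88.8 at 12h. The other 5 tested SWEET genes, *SWEET11* among them with 825.9 at 16h, against 826.2 and 554.7 at 12h, stayed within 1 unit of the 12h range. So 1 of 7 tested SWEET genes lay above and 1 below, where 5.61% and 3.18% of all tested probe sets did. Of 14 SWEET genes with a named probe set only these 7 passed the filter on low means.

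Regulators above the 12h range came from several families. The zinc finger factor gene *STZ* had 170.9 at 16h, against 44.1 and 23.7 at 12h. *WRKY6* had 83.7 at 16h, against 10.7 and 4.0 at 12h. It was the only 1 of 6 tested genes named WRKY outside the range, where 5.61% of all tested probe sets lay above. The differences of the 6 ran from -0.1 to 2.11 log2 units, with a median of 0.87, against -0.01 over all tested probe sets. *GT-1*, a factor that binds light-responsive promoters, had 152.8 at 16h, against 38.7 and 41.6 at 12h. Each of these 12h pairs lay well under the single 16h value. *bHLH121*, a factor of iron supply, had 191.7 at 16h, against 71.3 and 63.2 at 12h. *MYBC1*, a MYB factor that lowers freezing tolerance, had 44.2 at 16h, against 11.2 and 5.1 at 12h. *HON4*, a linker histone relative, had 308.1 at 16h, against 128.4 and 130.9 at 12h. *ATL8*, a RING ubiquitin ligase gene, and *CML30*, a calmodulin-like gene, lay 2.29 and 1.90 log2 units above the nearer 12h array. None of 11 tested bZIP genes lay outside the range, where 5.61% of all tested probe sets lay above and 3.18% below. Of the 11, limma called 1 higher.

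At the cell surface, *EXGT-A3* (*XTH27*), which cuts and rejoins xyloglucan, had 1003.6 at 16h, against 216.6 and 279.5 at 12h. *EXLA1*, an expansin-like gene, had 104.6 at 16h, against 24.8 and 14.8 at 12h. These were 2 of 12 tested expansin and xyloglucan endotransglucosylase genes above the range, where 5.61% of all tested probe sets were, with 0 below. *BIK1*, a cytoplasmic kinase of immune signalling, had 185.6 at 16h, against 76.9 and 73.8 at 12h. *FER*, a receptor kinase that senses the wall, had 351.9 at 16h, against 154.3 and 115.2 at 12h, and its call was narrow (limma adjusted p = 0.0335, and 0.0535 without 12h B). *DER2.1*, a derlin of protein export from the endoplasmic reticulum, had 340.6 at 16h, against 119.5 and 133.3 at 12h. *CRT1b*, a calreticulin of the same compartment, lay below with 399.6 at 16h, against 866.2 and 925.0 at 12h.

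Glycosyltransferases of the UGT family, which attach sugars to small molecules, stood on both sides. Of 26 tested genes named by family symbol 4 lay above the 12h range and 5 below, where 5.61% and 3.18% of all tested probe sets did. *UGT85A4* had 121.5 at 16h, against 19.7 and 22.4 at 12h. *UGT76C2*, which inactivates cytokinins, had 96.0 at 16h, against 19.4 and 20.4 at 12h. *UGT73B1* and *UGT87A2* lay 1.34 and 1.12 log2 units above, and the call of *UGT87A2* was lost without 12h B (limma adjusted p = 0.0549) and with every array scaled to 1 median (0.0614). The 5 below were *UF3GT*, *GT72B1* (*UGT72B1*), *UGT78D1*, *UGT78D2* and *UGT74B1*, of which all but *GT72B1* belong to the flavonoid and glucosinolate genes described next.

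Below the 12h range, the named gene farthest out was *TBL26*, of a family that acetylates cell-wall polysaccharides. It had 34.1 at 16h, against 977.6 and 1208.9 at 12h, a log2 difference of -4.46 ± 0.274 (SE, limma adjusted p = 1.2e-05). *AT1G80130* came next with 42.7 at 16h, against 590.8 and 421.7 at 12h. *GI*, the only clock core gene of 16 listed with a named probe set, had 7.8 at 16h, against 151.0 and 184.7 at 12h (log2 difference -2.94 ± 0.288, SE; limma adjusted p = 1.99e-04). The level of *GI* at 16h lay below the pseudocount of 16, so its log2 difference is understated. *MSRB6*, which repairs oxidised methionine, had 32.9 at 16h, against 252.3 and 206.0 at 12h. *AT1G68600*, *AT2G23910*, *AT1G67360*, *AT3G09440*, *AT1G73600*, *AT1G31690*, *AT3G26960* and *AT3G44450* lay between 2.10 and 2.45 log2 units below the nearer 12h array.

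Genes of flavonoid synthesis and modification were below the range for 6 of 7 tested, where 3.18% of all tested probe sets were, with a median difference of -1.88. *AT1G06000* had 52.0 at 16h, against 487.7 and 537.7 at 12h. *UF3GT*, which decorates anthocyanins, had 63.7 at 16h, against 323.7 and 414.3 at 12h. *AT4G14090* had 47.2 at 16h, against 225.4 and 306.4 at 12h. All 3 were more than 1.9 log2 units under the lower 12h array. *CHIL*, a helper of chalcone synthesis, had 58.8 at 16h, against 222.1 and 227.1 at 12h. *UGT78D1*, a flavonol rhamnosyltransferase, had 71.3 at 16h, against 254.8 and 364.3 at 12h. *UGT78D2*, a flavonoid glucosyltransferase, had 121.4 at 16h, against 316.1 and 513.7 at 12h. The seventh, *DFR*, the reductase that commits the path to anthocyanins, had 346.1 at 16h, against 588.8 and 806.4 at 12h, and did not pass (limma adjusted p = 0.0727).

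Cold-response genes were divided. *COR15A*, whose protein shields chloroplast membranes, had 324.2 at 16h, against 2452.2 and 1452.8 at 12h. *COR15B* had 140.7 at 16h, against 882.3 and 760.3 at 12h. *AT4G30650* had 461.3 at 16h, against 2578.0 and 1829.8 at 12h. These 3 remained bright at 16h although they lay about 2 log2 units under the lower 12h array, from 1.95 to 2.31. *COR47* had 251.5 at 16h, between its 12h values of 370.0 and 175.6. *LTI30* had 57.0 at 16h, also between 152.3 and 49.5 at 12h. Both dehydrin genes therefore gave no direction, and 3 of 5 tested genes of the list were below, where 3.18% of all tested probe sets were.

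The few listed starch genes with a named probe set lay lower at 16h, though not every one passed. *APL3*, a large subunit of ADP-glucose pyrophosphorylase, had 42.4 at 16h, against 231.1 and 335.9 at 12h. *APL4*, another large subunit, had 14.6 at 16h, against 37.7 and 53.7 at 12h, with a narrow call (limma adjusted p = 0.0466, and 0.138 without 12h B). *SBE2.2*, a branching enzyme, had 312.0 at 16h, against 465.7 and 661.7 at 12h, and did not pass (limma adjusted p = 0.102). Of 3 tested genes of starch synthesis (14 listed) limma called 2 lower, where it called 4.43% of all tested probe sets lower. In this list 1 gene lay below the 12h range, where 3.18% of all tested probe sets did. On the breakdown side, only 2 of 16 listed genes were tested. *DPE1*, which rearranges malto-oligosaccharides, had 165.8 at 16h, against 373.5 and 389.2 at 12h. *PWD*, which phosphorylates the granule, had 367.4 at 16h, against 685.5 and 842.9 at 12h, and its call was lost without 12h B (limma adjusted p = 0.0803).

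Genes of glucosinolates, sulphur-rich defence compounds of this plant family, were below for 3 of 4 tested, where 3.18% of all tested probe sets were. *BCAT4*, the aminotransferase that opens chain elongation of methionine, had 718.4 at 16h, against 2110.3 and 1727.9 at 12h. *UGT74B1*, which glucosylates the core structure, had 226.5 at 16h, against 550.3 and 606.9 at 12h. *AT2G31790* had 338.2 at 16h, against 857.7 and 815.8 at 12h. *GSTU20*, a glutathione transferase, had 1115.7 at 16h, against 2026.3 and 1842.6 at 12h, and did not pass (limma adjusted p = 0.134). Among 9 tested beta-glucosidase genes, a family of enzymes that cleave glycosides, *BGLU44*, *BGLU25* and *BGLU47* lay below and 0 above, against the same 3.18%. *BGLU44* had 445.9 at 16h, against 1135.4 and 1218.9 at 12h.

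**Figure D3:**
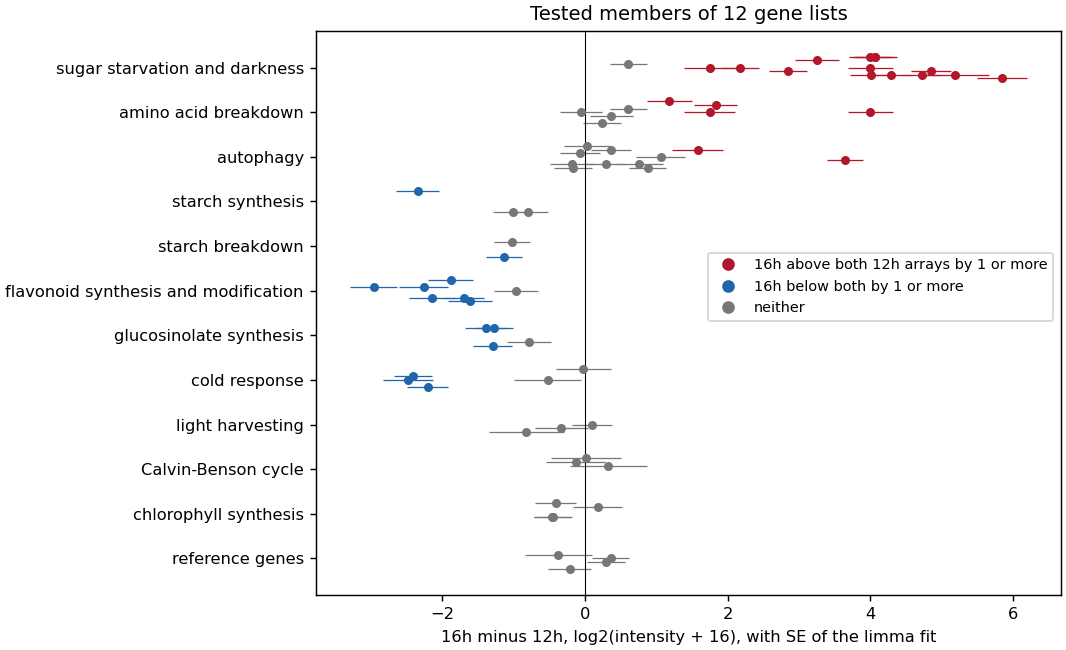
Each point is 1 tested gene of a list, placed by its log2 difference of 16h minus 12h, with the standard error of the limma fit as a bar. Points are coloured where the 16h array lay at least 1 log2 unit above (14 of 15 in sugar starvation and darkness) or below (6 of 7 in flavonoid synthesis and modification) both 12h arrays; the light harvesting, Calvin-Benson, chlorophyll and reference genes hold none.

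Smaller groups added single genes. *GH9C2*, an endoglucanase of the cell wall, had 104.5 at 16h, against 561.8 and 368.2 at 12h. It was 1 of 5 tested GH9 genes outside the range, where 3.18% of all tested probe sets lay below. *CSLA01*, of a family that makes mannans, had 18.8 at 16h, against 84.8 and 84.8 at 12h. In the clock output list, *AT4G33980* lay above with 191.6 at 16h, against 22.5 and 64.2 at 12h. *AT1G07050* of that list lay below with 118.7 at 16h, against 537.5 and 348.3 at 12h. The other 2 tested genes of the list, *CCL* and *COR27*, differed by -0.03 and 0.57 log2 units. *AT5G64120* was above among 8 tested peroxidase and glutathione transferase genes, where 5.61% of all tested probe sets were. It had 160.3 at 16h, against 45.2 and 25.1 at 12h. None of 12 tested cytochrome P450 genes lay outside the range, where 5.61% of all tested probe sets lay above and 3.18% below. The differences of the 12 ran from -1.1 to 1.31 log2 units. *HYH* of light signalling differed by 0.08 log2 units and *AT3G21670* of the nitrogen list by -0.5.

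Among genes with a symbol, a few of organelle protein folding and RNA handling lay below. *Cpn60beta2*, a subunit of the plastid chaperonin, had 392.8 at 16h, against 1194.6 and 1318.2 at 12h. *Cpn60beta3* had 32.6 at 16h, against 86.4 and 126.4 at 12h, while *Cpn60beta4* had 158.4 at 16h, against 249.3 and 311.9 at 12h, and did not pass (limma adjusted p = 0.135). Leaving out 12h B took the call of *Cpn60beta3* as well (limma adjusted p = 0.0533). *PPR596*, a pentatricopeptide protein of RNA editing, had 38.0 at 16h, against 191.5 and 191.9 at 12h. *OTP81*, another editing factor, had 13.5 at 16h, against 66.7 and 117.0 at 12h. These were 2 of 10 tested genes of organelle RNA processing below the range, where 3.18% of all tested probe sets were. The differences of the 10 ran from -1.94 to 0.58.

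Among genes with a symbol, machinery for ribosomal RNA in the nucleolus gave a few members. Members known by locus alone were not grouped by this function. A name search for cytosolic ribosomal proteins matched 0 genes, so the extent of ribosome-related genes among the members was not measured. *NRPA2*, the second-largest subunit of RNA polymerase I, had 67.2 at 16h, against 182.7 and 194.6 at 12h. It was 1 of 10 tested subunit genes of nuclear RNA polymerases outside the range, where 3.18% of all tested probe sets lay below. All 10 differences were negative, from -1.30 to -0.23, with a median of -0.53, against -0.01 over all tested probe sets. *YAO*, needed to process the ribosomal RNA precursor, had 30.8 at 16h, against 82.5 and 88.8 at 12h. *IMP4*, of the same process, had 58.8 at 16h, against 134.0 and 152.3 at 12h. Both calls were lost without 12h B (limma adjusted p = 0.0578 and 0.0608). *PYRB*, which starts pyrimidine synthesis, had 136.2 at 16h, against 305.5 and 311.3 at 12h. *VTC4*, a phosphatase of ascorbate synthesis, had 115.4 at 16h, against 313.7 and 325.4 at 12h.

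Genes encoded in the plastid genome were mostly inside the range: 3 of 69 lay below it and 0 above, where 3.18% and 5.61% of all tested probe sets did, with a median difference of -0.08. So small a count is no result about these genes as a group. *rps14*, a ribosomal protein gene, had 101.9 at 16h, against 273.2 and 324.9 at 12h. *rpoB*, an RNA polymerase subunit gene, had 58.7 at 16h, against 155.1 and 217.1 at 12h. *psbB*, a photosystem II gene, had 188.3 at 16h, against 408.0 and 676.2 at 12h, and did not pass (limma adjusted p = 0.0956). The 12h arrays differed from each other most for *psbB* among these 3.

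The few listed genes of photosynthesis with a named probe set stayed within 1 unit of the 12h range. *RCA*, which activates Rubisco, had 3249.6 at 16h, against 2897.6 and 2299.9 at 12h. *LHCB4.1*, a light-harvesting protein gene, had 2765.0 at 16h, against 6294.7 and 3823.8 at 12h, with a wide error (log2 difference -0.82 ± 0.524, SE; limma adjusted p = 0.367). *PORB* of chlorophyll synthesis had 1082.2 at 16h, against 1491.0 and 1405.4 at 12h. In all, 0 of 3 tested light harvesting genes (18 listed), 0 of 3 Calvin-Benson cycle genes (19 listed) and 0 of 4 chlorophyll synthesis genes (19 listed) lay outside the range, and the other listed genes were not analysed here. Of all tested probe sets 5.61% lay above and 3.18% below, so these small counts are no result about the groups. A p that misses the threshold does not show that these genes were equal at both hours. The leaf genes *RCA* and *LHCB4.1* were bright at both hours, as the rosette label requires, and none of the 4 leaf marker genes, the 1 tested root marker (*PYK10*, 113.7 at 16h, against 120.2 and 126.8 at 12h), or the 2 of guard cells and phloem (*FMA* and *SWEET11*) lay outside the range. For whole rosettes, fewer cells of a type and less RNA per cell cannot be told apart. The 4 reference genes differed by -0.37 to 0.36 log2 units.

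The members were then followed in arrays that played no part in choosing them. The difference 20h minus 08h had a median of 1.69 log2 units over the 831 members above, and 657 of them (79.1%) reached 1, where 1606 of all 22746 probe sets (7.06%) did. None of the 831 reached -1 or less, where 7.79% of all probe sets did. For the 446 members below, the median was -2.0, 394 (88.3%) reached -1 or less, and 0 reached 1. The difference was positive for 813 of the 831 above and negative for 443 of the 446 below, against 10034 positive and 12399 negative of all 22746.

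The mean of both 00h arrays minus 04h gave a similar picture. It was at least 1 for 566 of the members above (68.1%), where 5.86% of all probe sets were, and -1 or less for 7. For the members below it was -1 or less for 345 (77.4%), where 8.8% of all probe sets were, and at least 1 for 1. Both differences together reached 1 for 551 of the 831 above, and -1 for 331 of the 446 below. Over all 22746 probe sets, both reached 1 for 1052 and -1 for 1293. The hours 04h, 08h and 20h have 1 array each, so these are values without a test. The medians over hours, taken as the deviation of each probe set from its own mean, were 0.83, -0.6, -0.81, -0.93, 0.67 and 0.87 for the members above at 0, 4, 8, 12, 16 and 20 h. For the members below they were -1.07, 0.74, 0.98, 0.94, -0.5 and -1.04. The mean subtracted holds the 12h and 16h values that chose the members, so these deviations are a description at every hour. Members below lay lower at 20 h and 0 h than at 16 h.

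**Figure D4:**
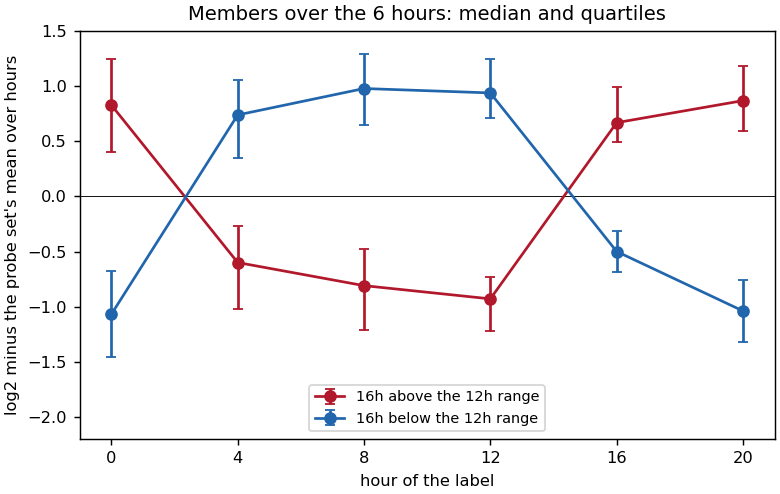
Median (points) and quartiles (bars) of the members above and below the 12h range at each hour, as the log2 value minus the probe set's own mean over the 6 hours. The members above have their lowest median at 12 h (-0.93) and their highest at 20 h (0.87), and the members below their highest at 8 h (0.98) and their lowest at 0 h (-1.07).

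Some named genes went on moving after 16h. *COR15A* had 46.7 at 20h and 38.0 and 21.9 at 00h, all under its 324.2 at 16h. *BCAT4* had 222.1 at 20h and 130.7 and 99.3 at 00h. *CHIL* had 2.9 at 20h and 2.6 and 1.8 at 00h, which is close to 0 signal. These 3 were only part of the way down at 16h. *GSTU20*, still within 1 unit of the 12h range at 16h, had 218.4 at 20h and 177.4 and 121.5 at 00h. *SWEET17* was at 202.1 at 16h, against 247.3 and 235.9 at 12h, and had 125.9 at 20h and 146.8 and 118.3 at 00h. In contrast, *TBL26* already had 34.1 at 16h and stayed low, with 15.3 at 20h and 28.8 and 20.0 at 00h. Above the range, *MGL* had 411.3 at 16h and 1361.5 at 20h, and *IVD* had 203.8 at 16h and 513.3 at 20h. *AT1G25400* ran the other way, with 832.8 at 16h, 503.2 at 20h and 347.7 and 275.4 at 00h. No test was made of these later steps.

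**Figure D5:**
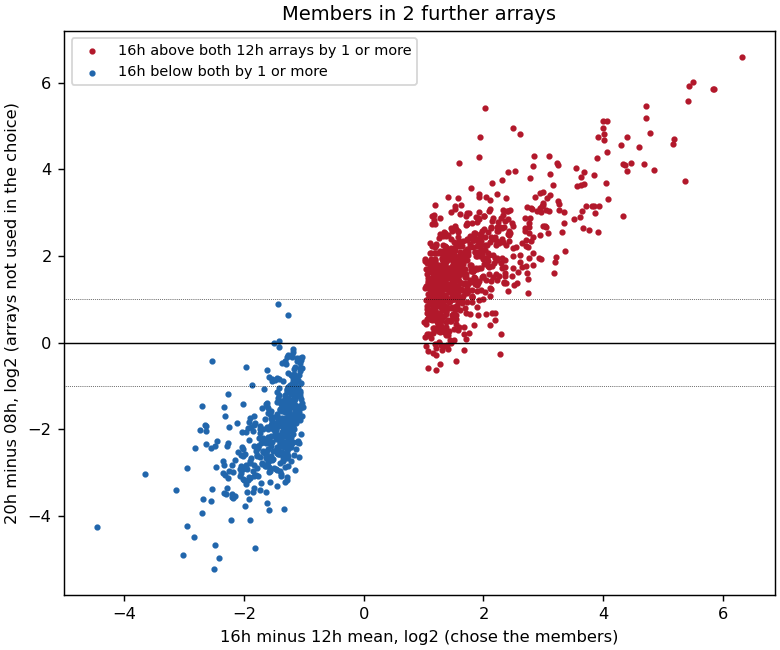
Each point is 1 member, placed by its log2 difference of 16h minus the 12h mean, which chose it, and by its log2 difference of 20h minus 08h, 2 arrays that had no part in the choice. Of the members above 657 lie over the upper dotted line at 1, and of those below 394 lie under the lower dotted line at -1.

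A minority of members was outside the 12h range at 16h and showed little of this in the other arrays. Both 20h minus 08h and 00h minus 04h were under 0.5 log2 units in the member's direction for 61 of the 831 above (7.34%). The same held for 10 of the 446 below (2.24%). The share of all probe sets under this cut was not counted, so these percentages have no background to be set against. *EXLA1* had its high value of 104.6 at 16h alone, with 14.8 to 46.0 on the other 7 arrays. *FER* had 351.9 at 16h and 368.5 at 20h, but 257.3 at 08h and 312.5 at 04h. *SKU5*, a protein of directional root growth, had 890.4 at 16h, against 391.9 and 433.5 at 12h, and 707.7 at 04h, and did not pass (limma adjusted p = 0.072). In *SKU5* the 12h arrays were low beside the hours before them. *FEY* had 150.3 at 16h, against 33.4 and 49.6 at 12h, and 100.2 at 08h. Among the 10 below, *AT2G23910* was high at 12h only, with 24.9 at 16h, against 195.8 and 250.7 at 12h, and 1.0 to 33.5 on the other 5 arrays. *rpoB* had its highest values at 12h too, with 27.6 to 54.2 on the other 5 arrays. In both, the 12h pair was the high point of the course, and the 16h value lay near the other hours.

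Measures of array quality were set beside the comparison. The hybridisation controls, which are spiked in after labelling, had a mean log2 intensity of 7.25 at 16h, against 9.21 on 12h A and 7.57 on 12h B. At 00h it was 9.17 on A and 7.54 on B. Each pair that gave the limma spread therefore held 1 array with high controls and 1 with low controls. The control level entered an alternative fit as a block, given at the end, and its part in the choice of members was not tested. The ratio of actin signals from the 3' and 5' end, a sign of RNA integrity, was 2.29 at 16h, against 3.11 and 3.19 at 12h, and its part in the results was not tested. That of GAPDH was 1.03 at 16h, against 1.18 and 0.943 at 12h. The medians of all probe sets were close, 36.1 at 16h, against 34.6 and 35.3 at 12h. *PGM1*, which encodes the enzyme that pgm plants lack, is not analysed here, so the genotype label could not be checked on it.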

How the data were processed

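The deposited series table gives linear intensities, 1 for each array and probe set, and MAS5 is named as their source in the submitters' processing notes. Its values have a trimmed mean of 100 (2% cut at each end) on every array, so differences in total mRNA are removed. From these deposited intensities log2(value + 16) was computed, 64 control probe sets of 22810 were left out, and 22746 remained. A log2 difference on this scale understates changes of dim probe sets. Array number limits the precision.

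limma 3.58.1 in R 4.3.3 was fitted with the hour as a factor over 8 arrays at 6 hours (lmFit, contrasts.fit, eBayes with trend), on the 13647 probe sets left after removing the lowest 40% by mean, with Benjamini-Hochberg adjustment and a threshold of 0.05.

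Gene names come from the annotation table of the platform, which gives 1 gene for 13513, several for 503 and none for 8730. Of the first, 13436 matched the RefSeq table of TAIR10.1, which supplied symbols. A gene entered a list with its probe set of highest mean.

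Genes named are the 15 farthest above and below, up to 4 members of each list outside the range, clock core and SnRK1 genes, and those at the edge of the rule. Other genes with a symbol, the families grouped by symbol and the genes followed over hours were chosen after their values were seen. The members and lists were chosen with earlier results of these data known. Promoter motifs and sequences were not used here. Alternatives were pseudocounts, scalings, filters, blocks and arrays left out.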

Additional observations from a re-analysis of the deposited data

How the results depend on the processing

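The count of members depends on the pseudocount and on the distance asked for. With a pseudocount of 1 the 16h array lay above both 12h arrays for 1941 probe sets and below for 1016, with 64 for 397 and 205, at a distance of 0.5 log2 units for 2329 and 1852, and at 2 units for 187 and 44. With 1 array at 12h left out, 1209 to 1239 lay above and 771 to 845 below, since an array less can only widen the set. Scaling every array to 1 median gave 759 above and 494 below, and quantile normalization 779 and 506. Autophagy had 1 member above with a pseudocount of 64, *ATG8E*. The numbers of members outside the range in the other lists compared (sugar starvation, amino acid breakdown, flavonoids, glucosinolates, cold) stayed within 1.5 times of those reported. Among single genes whose difference exceeded its standard error, the sign changed or reached 0 without 12h replicate A for *LTI30* (0.16, and -1.21 without replicate B) and *BGLU33* (-0.0, and 0.7 without replicate B). Neither was called. Differences smaller than their standard error, such as that of *COR47* (-0.53 to 0.48), also changed sign.

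limma calls were 272 higher and 86 lower when no probe set was filtered out; the cause was not tested. With the hybridisation control level as a block there were 1411 and 1147, and all calls reported were kept. This block and the replicate block given next each use up part of the 2 residual degrees of freedom. Their larger counts and kept calls therefore show no added certainty. Whether the letters A and B pair arrays of different hours is not stated, and their deviations at 00h and 12h correlated at 0.297 over 2 pairs. With the replicate block limma called 1544 higher and 1245 lower, again with every reported call kept. The difference of 3 of the named genes moved by more than its standard error. Results moved more often in other settings: 95 with a pseudocount of 64 and 61 with a pseudocount of 1. Without 12h replicate A 17 moved, and without 12h replicate B 19. Leaving out single arrays of 12h or 00h gave 930 to 1253 higher and 526 to 882 lower. Of 122 called genes, 2 lost the call without 12h replicate A and 16 without 12h replicate B. The alternative with only the arrays of low hybridisation controls has no residual degrees of freedom and was not run as a test; it equals the values set against 12h B alone.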
